A study of Mus musculus with 4 samples.

Results

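The genes described here are the arginine methyltransferases Prmt1, Prmt2, Prmt3, Carm1, Prmt5, Prmt6 and Prmt7 and the Prmt5 cofactors Wdr77 and Clns1a. They were chosen by symbol, and these 9 of the 32285 genes in the count tables were each found as a single row. They were measured by droplet single-cell RNA-seq, which counts each captured transcript once through its unique molecular identifier (UMI), in mice carrying MA9 leukemia. MA9 cells, a model of acute myeloid leukemia, carry the fusion gene MLL-AF9 and were transplanted into mice. The study lists an MLL-AF9 knock-in strain among its mice. A hairpin RNA switched on by doxycycline was aimed at Prmt9 in 1 group (shPrmt9) and the other group carried a control (Ctrl). The hairpin was present only in the transplanted leukemia cells and their progeny, not in the cells of the recipient. All animals were labelled C57BL/6J and 6-8 weeks old, both groups received doxycycline in drinking water for 7 days, and bone marrow (BM) and spleen each gave 1 library a group, named BM-Ctrl and BM-shPrmt9 for marrow, and Spleen-Ctrl and Spleen-shPrmt9 for spleen, 4 in all. The study describes 1 representative mouse in each group, so with 1 library a group no difference here has a replicate check. Every interval below is an exact 95% interval that covers counting error only.

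Protein arginine methyltransferases move a methyl group from S-adenosylmethionine onto the guanidino nitrogens of arginine. Type I enzymes (Prmt1, Prmt2, Prmt3, Carm1 and Prmt6) place both methyl groups on the same nitrogen, the type II enzymes Prmt5 and Prmt9 place them on different nitrogens, and Prmt7 adds a single methyl group. Prmt5 works in a complex with the WD-repeat protein Wdr77 (MEP50), and Clns1a (pICln) directs that complex to the Sm proteins of the spliceosome. The study asked what loss of Prmt9 does in leukemia, and the genes below are the rest of its family and the partners of the other type II enzyme.

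The libraries held 8648 to 11315 barcodes and 84009744 to 188030429 UMIs, and 7507 to 10163 cells a library were used, with median depths of 6262 to 10375 UMIs. Cells were sorted into 12 classes by their own marker transcripts. The class called progenitor here was gated on 12 markers, of which 7 belong to the Hoxa9 program of MA9 cells and 5 to neutrophil progenitors, at least 3 of the former being required, and its leading genes were Hpgd, Elane, Ctsg and Hoxa9. It held 1546 cells of BM-Ctrl and 1779 of BM-shPrmt9. Levels are UMIs per 1000000 UMIs of the class and library (CPM). The libraries stood apart from each other: progenitors and both neutrophil classes of marrow and T and B cells of spleen had their main cluster in different clusters under the 2 labels, while monocytes, B, T and erythroid cells of marrow and NK cells of spleen shared one. A difference between labels cannot be told apart from a difference between libraries. In T and B cells Xist, expressed from the inactive X chromosome of females, was at 104 CPM in BM-Ctrl and 759 CPM in BM-shPrmt9 against 0.155 and 0.0743 CPM in the 2 spleen libraries. The 4 Y-linked genes Ddx3y, Uty, Kdm5d and Eif2s3y were at 0 UMIs in those cells of both marrow libraries and at 223 and 201 CPM in the spleen libraries, so the marrow and spleen libraries of one label did not match as cells of 1 animal. The libraries of marrow also differed in Xist between labels in the cells compared here, at 0.106 and 22.6 CPM in progenitors and 0.524 and 202 CPM in neutrophils, monocytes and erythroid cells as 1 sum (BM-Ctrl and BM-shPrmt9), with at most 1 Y-linked UMI in each. The classes of marrow therefore did not match in Xist between labels. Whether they differed in origin was not tested, and origin and label cannot be told apart there. Comparisons between labels are given within a tissue. Pairs of libraries shared 15 to 35 cell barcodes.

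In GENCODE's annotation of GRCm38, the assembly named mm10 in the submitters' processing notes, the members lie on 6 chromosomes, and all of them are protein-coding genes. The type I genes are Prmt1 (ENSMUSG00000109324; chromosome 7, 44975989-44986568, minus strand), Prmt3 (ENSMUSG00000030505; chromosome 7, 49778346-49858265, plus strand), Prmt2 (ENSMUSG00000020230; chromosome 10, 76207222-76237865, minus strand), Carm1 (ENSMUSG00000032185; chromosome 9, 21546894-21592623, plus strand) and Prmt6 (ENSMUSG00000049300; chromosome 3, 110246109-110250998, minus strand). The Prmt5 group is Prmt5 (ENSMUSG00000023110; chromosome 14, 54507187-54517525, minus strand), Wdr77 (ENSMUSG00000000561; chromosome 3, 105959369-105970037, plus strand) and Clns1a (ENSMUSG00000025439; chromosome 7, 97696634-97720796, plus strand). The remaining gene is Prmt7 (ENSMUSG00000060098; chromosome 8, 106210936-106252794, plus strand). Exons of Prmt2, Prmt3 and Wdr77 overlap those of another annotated gene on the same strand (Mir678, Gm44822 and Gm42890), none of which is in the count tables.

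RefSeq's table of start-site windows for GRCm38.p6 (250 bases before to 50 after each start) held 8 of the 9 members, all but Carm1. The E-box CACGTG, which reads the same on both strands and is the core bound by Myc and related factors, was found in 4 of these 8 windows and in 7.24% of all 27025 windows. The letters TCTCGCG, searched on both strands, were found in the Wdr77 window alone among the members and in 2.72% of all windows. CCGGAAG, a core bound by ETS factors, was in the windows of Prmt2, Prmt3 and Clns1a and in 9.12% of all. CCAAT was in those of Prmt1, Prmt2, Prmt3 and Prmt5 and in 37.9% of all, and TGCGCA was in those of Prmt2, Prmt3, Prmt6 and Wdr77 and in 8.06% of all. In the Prmt3 window the E-box and the ETS core lie beside each other. A match is a string of letters and not a measured site. The windows with an E-box are shown so that its place can be compared between members, and those with TCTCGCG because Wdr77 was the member that held it. The windows of Prmt2, Prmt5, Prmt6 and Prmt7 held no E-box, and whether a match bears on the level of a gene was not tested. For each match shown, 30 bases are given 5′ to 3′ on the gene's strand with the match in capitals. The E-box begins 181 bases before RefSeq's start of Prmt1, 13 before that of Prmt3, 114 before that of Clns1a and 9 after that of Wdr77. TCTCGCG with its overlapping reverse complement begins 221 and 47 bases before the start of Wdr77. The reverse complement alone also begins 151 bases before that start, a match that is not shown.
Prmt1, chr7:44986584-44986613, minus strand: acccaatcgtcaCACGTGctgggtgagaca
Prmt3, chr7:49778333-49778362, plus strand: gccccctacgccCACGTGacccggaagcgc
Clns1a, chr7:97696531-97696560, plus strand: gggaaccgatgcCACGTGacaaaagccagc
Wdr77, chr3:105959495-105959524, plus strand: gcagaggtacacCACGTGtgcggtccctcc
Wdr77, chr3:105959267-105959296, plus strand: cgctcgcacaTCTCGCGAGAagagatcagc
Wdr77, chr3:105959441-105959470, plus strand: tagacacaatTCTCGCGAGAagtagagcga

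Prmt9, the target of the hairpin and no member, was at 11.2 (10.5 to 11.9) CPM in progenitors of BM-Ctrl and 6.36 (5.87 to 6.87) CPM in those of BM-shPrmt9, a ratio of 0.570 (0.515 to 0.630). In monocytes and macrophages of marrow its ratio was 1.17 (0.867 to 1.57). In T cells of spleen it was 0.608 (0.509 to 0.724) and in B cells of spleen 0.736 (0.632 to 0.854), so Prmt9 was also lower in these T and B cells. In the other lymphocyte classes its interval included 1, at 1.44 (0.761 to 2.73) in T and 1.13 (0.604 to 1.99) in B cells of marrow and 1.62 (0.773 to 3.57) in NK cells of spleen. Whether the lymphocytes descend from transduced cells was not tested.

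Over the 4 libraries the members gave 1805 (Prmt2) to 58571 (Prmt1) UMIs. In marrow, Prmt1, the main type I enzyme of mammalian cells, was at 179 (176 to 181) CPM in progenitors of BM-Ctrl and 146 (143 to 148) CPM in those of BM-shPrmt9. B cells had 123 and 131 CPM and T cells 86.7 and 81.5 CPM. Mature neutrophils had 7.94 (6.40 to 9.75) and 6.62 (5.57 to 7.81) CPM and erythroid cells 7.67 and 14.5 CPM. Prmt1 was thus high in progenitors and lymphocytes and low in neutrophils and erythroid cells in both marrow libraries. In spleen its highest level was in B cells of Spleen-shPrmt9, at 247 (241 to 253) CPM, followed by NK cells of Spleen-Ctrl, at 201 (176 to 227) CPM.

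Prmt3, which methylates the ribosomal protein Rps2, and Prmt6, which places a repressive mark on histone H3, were also highest in progenitors in BM-Ctrl. Prmt3 was at 36.3 CPM in progenitors, 25.7 in B cells, 18.2 in T cells and 1.40 in mature neutrophils. Prmt6 was at 16.2 (15.4 to 17.0) CPM in progenitors and at 2.08 (0.566 to 5.32) CPM in T cells. Carm1 (Prmt4), a coactivator that methylates histone H3 and splicing factors, ran in BM-Ctrl from 1.68 (0.994 to 2.65) CPM in immature neutrophils to 13.8 (9.16 to 19.9) CPM in dendritic cells, and its intervals in progenitors, T, B and dendritic cells overlapped.

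Prmt2, a weakly active type I enzyme with an SH3 domain, had the reverse order of progenitors and lymphocytes. It too was low in mature neutrophils of BM-Ctrl, at 0.0873 CPM. In BM-Ctrl it was at 1.18 (0.967 to 1.42) CPM in progenitors, 6.23 (4.41 to 8.55) in B cells, 14.5 (9.66 to 21.0) in T cells and 17.1 (8.20 to 31.4) in NK cells. BM-shPrmt9 gave 1.82 CPM in progenitors, 5.50 in B cells and 13.5 in T cells. Prmt2 was thus higher in T cells than in progenitors, with a T over progenitor ratio of 12.4 (7.86 to 18.9) in BM-Ctrl and 7.41 (4.29 to 12.1) in BM-shPrmt9, while the same ratio of the other 8 members lay between 0.128 and 0.758 in BM-Ctrl. In spleen, NK cells held 14.4 (8.56 to 22.8) and 22.4 (15.4 to 31.4) CPM of Prmt2 and B cells 5.90 and 6.14 CPM.

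Prmt5, the main type II enzyme, was at 32.6 (31.4 to 33.8) CPM in progenitors of BM-Ctrl and 25.4 (24.5 to 26.5) in those of BM-shPrmt9. Its level in NK cells was higher, at 65.0 (46.0 to 89.2) CPM in BM-Ctrl, 69.0 (55.2 to 85.2) in Spleen-Ctrl and 44.7 (34.6 to 56.9) in Spleen-shPrmt9, against 24.4, 28.2 and 34.6 CPM in T cells of the same libraries. The NK interval lay above that of T cells in both Ctrl libraries and overlapped it in Spleen-shPrmt9. Of its partners, Wdr77 was at 20.5 (10.6 to 35.8) CPM in NK and 15.1 (10.1 to 21.6) CPM in T cells of BM-Ctrl, intervals that overlap, and at 36.9 (27.0 to 49.2) and 19.0 (17.1 to 21.1) CPM in those of Spleen-Ctrl, which do not. Clns1a showed the same, with 49.6 and 50.4 CPM in BM-Ctrl and 88.2 and 47.9 CPM in Spleen-Ctrl. Prmt7 was at 40.9 (39.6 to 42.2) CPM in progenitors of BM-Ctrl and between 16.9 and 29.0 CPM in basophils, T, NK, dendritic, monocytic and B cells. In the megakaryocytic cells of BM-shPrmt9, Prmt1 was at 189 (165 to 215) CPM, Prmt3 at 50.7 (38.8 to 65.2) CPM and Wdr77 at 41.6 (30.9 to 54.8) CPM. These intervals lay above those of the progenitors of the library, and the intervals of Prmt6 and Clns1a overlapped those of the progenitors. The class held 42 cells there and only 16 in BM-Ctrl, too few to be read.

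**Figure D1:**
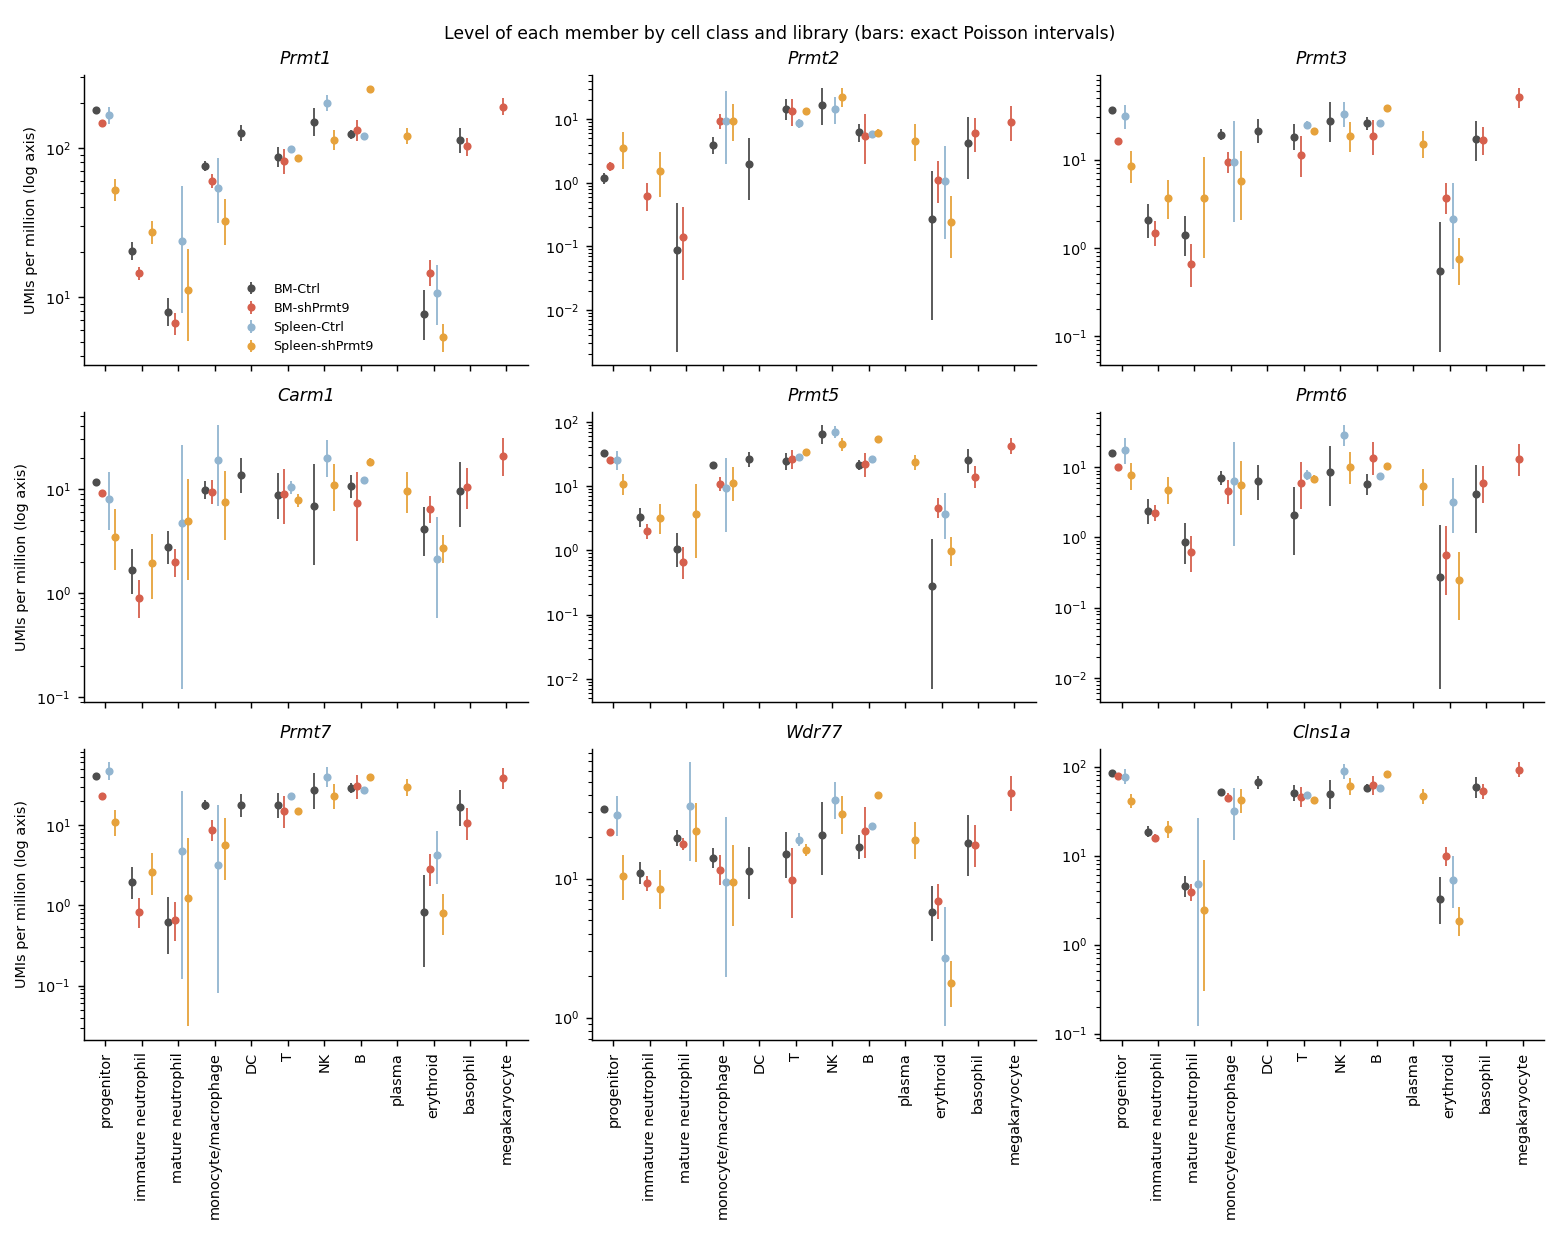
Level of each of the 9 members (CPM, log axis) in each cell class with at least 30 cells, in the 4 libraries by colour, with exact Poisson intervals; a sum with no UMI is not drawn. Prmt1 runs from 5.34 CPM in erythroid cells to 247 CPM in B cells, both of Spleen-shPrmt9, and Prmt2 in T cells sits above its level in progenitors in both marrow libraries.

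Progenitors, immature, granule-forming neutrophils and mature neutrophils of marrow were compared in that order. Most members were lower at each step, while Wdr77 and Carm1 were lower at the first and higher at the second. Whether these neutrophils descend from the gated progenitors, which carry MA9 markers, was not tested. Between progenitors and immature neutrophils 9 of 9 members in BM-Ctrl and 9 of 9 in BM-shPrmt9 were lower past 1.5-fold, where 53.6% and 58.6% of all genes tested were. Prmt7 was 20.9-fold lower in BM-Ctrl and 28.1-fold in BM-shPrmt9, with 1.96 and 0.827 CPM left. Prmt1 was 8.80-fold and 10.2-fold lower. Wdr77 had the smallest difference, with ratios of 0.349 (0.288 to 0.420) and 0.432 (0.379 to 0.492), and Prmt9, outside the list, was at 0.952 (0.778 to 1.16) and 1.27 (1.08 to 1.48).

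From immature to mature neutrophils, 5 of 8 members in BM-Ctrl and 6 of 9 in BM-shPrmt9 were lower past 1.5-fold (all genes, 37.3% and 39.4%), and 2 in each library were higher (all genes, 23.6% and 19%). The higher ones were Wdr77 and Carm1. Wdr77 went from 11.0 (9.10 to 13.2) to 19.6 (17.1 to 22.3) CPM in BM-Ctrl and from 9.31 (8.21 to 10.5) to 17.7 (15.9 to 19.6) CPM in BM-shPrmt9, ratios of 1.78 (1.42 to 2.24) and 1.90 (1.62 to 2.23). Over the same step its catalytic partner Prmt5 was at ratios of 0.321 (0.152 to 0.634) and 0.335 (0.172 to 0.610), leaving 12 Prmt5 UMIs in 2999 mature neutrophils of BM-Ctrl and 14 in 3621 of BM-shPrmt9. Transcripts of the cofactor and of the enzyme thus moved in opposite directions in relative level between these stages. Median depth was 9228 UMIs in immature and 3457 in mature neutrophils of BM-Ctrl, and per 100 cells Wdr77 gave 192 UMIs in progenitors, 12 in immature and 7.47 in mature neutrophils of BM-Ctrl, so its share of transcripts was higher in mature cells and its UMIs per cell were not. Prmt5 gave 199, 3.56 and 0.400 UMIs per 100 cells in the same order. Carm1 had ratios of 1.67 (0.907 to 3.15) and 2.21 (1.32 to 3.78) over this step, the first of which includes 1. The part of free RNA in these low levels was not tested.

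**Figure D2:**
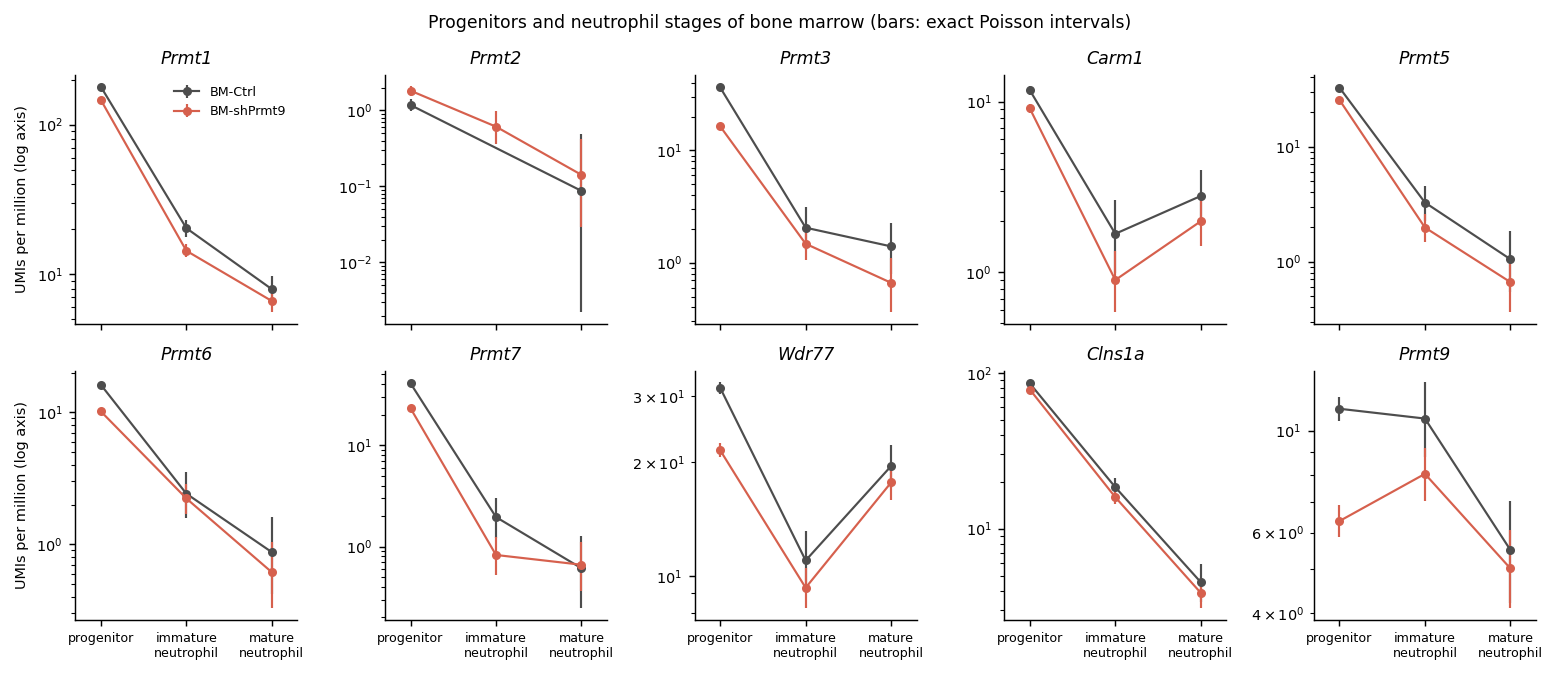
Level of the 9 members and Prmt9 (CPM, log axes that differ between panels) in progenitors, immature and mature neutrophils of BM-Ctrl (grey) and BM-shPrmt9 (red), with exact Poisson intervals; a sum with no UMI is not drawn. Wdr77 turns upwards at the mature stage in both libraries, to 19.6 and 17.7 CPM, where Prmt5 and Clns1a go on downwards.

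Over the 35 class and library sums of at least 30 cells, the levels of most members moved together. The points share libraries and depth, so the values that follow are descriptions. Pearson's r of log2(CPM + 1) was 0.968 for Prmt3 with Prmt5, 0.960 for Prmt1 with Prmt7, 0.952 for Prmt1 with Clns1a and 0.942 for Prmt1 with Prmt3. Wdr77 had lower values, 0.523 with Prmt5, 0.538 with Clns1a and 0.263 with Prmt2. With the members other than Wdr77, Prmt2 had values from 0.605 (Prmt6) to 0.766 (Prmt5). With the log2 median UMIs per cell of the class, r ran from -0.00862 (Prmt2) to 0.579 (Prmt6). Among 7456 genes with enough UMIs, the 3 profiles most like that of Prmt1 were Nsun2 (0.983), Cct2 (0.981) and Eif3i (0.981). Those most like Prmt7 were Gar1 (0.983), Nolc1 (0.975) and Wdr75 (0.974), and those most like Clns1a were Nudc (0.982), Ptma (0.980) and Rnf126 (0.978). Prmt5 was followed by Mak16 (0.971), Prmt3 (0.968) and Polr3d (0.963), and Prmt3 by Prmt5 (0.968), Tsr1 (0.967) and Nol9 (0.963), so these 2 were among each other's closest 3. The closest to Prmt6 were Snrpa1 (0.928), Ranbp1 (0.925) and Gemin5 (0.925). Carm1 had Fdx2 (0.884), Hspe1 (0.884) and Rcl1 (0.870), Wdr77 had Hnrnpu (0.852), Cr1l (0.841) and Polr1a (0.841) and Prmt2 had Cblb (0.892), AW112010 (0.882) and S100a10 (0.868).

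In progenitors of marrow, 8 of 9 members were lower in BM-shPrmt9 than in BM-Ctrl with an interval of the ratio below 1, which also held for 36.5% of the 14143 genes with at least 20 UMIs. By the stricter rule of 1.5-fold, 3 members were lower, against 16% of all genes, and 1 was higher, against 22.2%. The median log2 ratio of the members was -0.36 and that of all genes 0.03. Prmt3 had 3426 UMIs in BM-Ctrl and 1604 in BM-shPrmt9, or 36.3 (35.1 to 37.5) and 16.4 (15.6 to 17.2) CPM, which was the largest difference of any member. Prmt7 went from 40.9 to 23.2 CPM and Prmt6 from 16.2 to 10.2 CPM. The ratios of Prmt7 and Prmt6 lay beside that of Prmt9, and that of Prmt3 lay below it. In the Prmt5 complex, Wdr77 had a ratio of 0.683 (0.646 to 0.723) and Clns1a one of 0.914 (0.886 to 0.943), so the cofactors differed from each other beyond counting error. Prmt2, at 111 and 178 UMIs, was the member that was higher.

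Other transcripts moved with this comparison. Of the immature neutrophil markers 6 of 6 were higher in progenitors of BM-shPrmt9, from 1013 to 4372 CPM in sum, as were 7 of 7 mature neutrophil markers, from 186 to 830.4 CPM. The dendritic cell list was lower for 8 of 9 genes, from 159.7 to 18.7 CPM, and the Hoxa9 program was higher for 5 of 7, from 456 to 644 CPM. None of the genes on these lists was at 0 in both libraries. Of the 22 proliferation genes 20 were higher, from 1595 to 2385 CPM, and 34.0% of BM-Ctrl and 53.7% of BM-shPrmt9 progenitors carried at least 3 of them after each cell was thinned to 2000 UMIs. The rise of neutrophil markers was not particular to progenitors. The immature list went from 186 to 919 CPM in T, 267 to 876 in B and 223 to 1262 in erythroid cells of marrow, each for 6 of 6 genes. In basophils it went from 299 to 3617 CPM, for 5 of 6. The part of free RNA in this was not tested.

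Within a library, progenitors with proliferation transcripts were compared with those without. The interval of the ratio lay above 1 for 6 of 9 members in BM-Ctrl and 7 of 9 in BM-shPrmt9. The share of all genes with such an interval was not counted, so these tallies cannot be set against it. Over all genes the median log2 ratio lay at 0.024 for progenitors of the Ctrl library and at 0.040 for those of the shPrmt9 library. The ratio for Prmt1 was 1.31 (1.27 to 1.35) in BM-Ctrl and 1.73 (1.67 to 1.80) in BM-shPrmt9, and for Prmt7 1.35 (1.27 to 1.44) and 1.75 (1.59 to 1.93). Prmt2 was lower in them, at 0.123 (0.0517 to 0.252) and 0.426 (0.312 to 0.580), and Prmt6 was at 0.699 (0.626 to 0.780) in BM-Ctrl and 1.05 (0.918 to 1.19) in BM-shPrmt9. Among progenitors without proliferation transcripts 7 of 9 members were lower past 1.5-fold, against 18.5% of all genes, and among those with them 2, against 16%. Clns1a had a ratio of 0.727 (0.690 to 0.765) in the former and 0.965 (0.925 to 1.01) in the latter, Carm1 of 0.546 (0.466 to 0.638) and 0.855 (0.759 to 0.964), and Prmt1 of 0.627 (0.603 to 0.651) and 0.829 (0.805 to 0.854). Prmt3 was low in both, at 0.393 (0.354 to 0.435) and 0.439 (0.407 to 0.475).

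**Figure D3:**
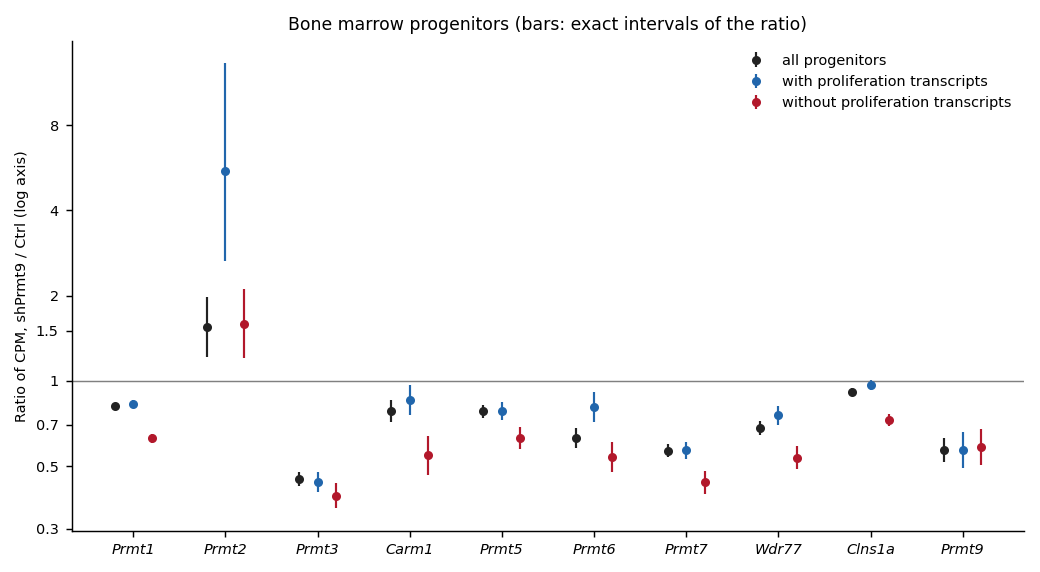
Ratio of CPM in BM-shPrmt9 over BM-Ctrl progenitors (log axis) for the 9 members and Prmt9, in all progenitors (black) and in those with (blue) and without (red) proliferation transcripts, with exact intervals of the ratio. All members but Prmt2 lie below 1, and most lie lower in the cells without proliferation transcripts (Prmt1, 0.627) than in those with them (0.829).

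The progenitors of the 2 libraries lay in different clusters. In the pair with fewer cycling cells (led by Spp1, Ero1l and Bcl2a1a in BM-Ctrl, 1081 cells, and by Cstdc5, Stfa1 and Clec1b in BM-shPrmt9, 1232 cells) the ratio was 0.444 (0.410 to 0.481) for Prmt3, 0.524 (0.488 to 0.563) for Prmt7 and 0.551 (0.510 to 0.594) for Wdr77. In the pair with more cycling cells (415 and 482 cells) it was 0.433 (0.395 to 0.475), 0.599 (0.553 to 0.648) and 0.908 (0.830 to 0.994). Prmt3 and Prmt7 were thus lower in both pairs by similar amounts, and Wdr77 differed more in the first. When only progenitors with at most 500 CPM of the 6 immature neutrophil markers were kept, which left 959 cells of BM-Ctrl and 116 of BM-shPrmt9 (6.52% of them), 1 member was past 1.5-fold lower. Prmt3 was then at 0.634, Prmt6 at 0.678 and Prmt7 at 0.813, while Prmt1 was at 1.11, Carm1 at 1.25, Prmt5 at 0.997, Wdr77 at 0.901 and Clns1a at 1.12. That subset had 38.9% and 70.7% of cells with proliferation transcripts. The ratios of Prmt1, Carm1, Prmt5 and Clns1a were thus near or above 1 in progenitors with little neutrophil transcript, and those of Prmt3, Prmt6 and Prmt7 stayed below 1 but nearer to it.

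In the other marrow classes the members past 1.5-fold ran from 1 of 9 in B cells to 6 of 7 in erythroid cells. In immature neutrophils 3 of 8 members with at least 20 UMIs were lower past 1.5-fold (all genes, 17.1%): Carm1, Prmt5 and Prmt7, with ratios of 0.536 (0.281 to 1.04), 0.606 (0.390 to 0.954) and 0.423 (0.224 to 0.803). Prmt2 had 0 UMIs in immature neutrophils of BM-Ctrl, which allows up to 0.280 CPM, and 17 UMIs (0.611 CPM) in BM-shPrmt9. In mature neutrophils 2 of 8 were past 1.5-fold lower (all genes, 19.2%), Prmt3 at 0.474 (0.214 to 1.04) and Prmt5 at 0.632 (0.271 to 1.5), and both intervals include 1. Monocytes and macrophages had 4 of 9 lower (all genes, 17.9%), Prmt3, Prmt5, Prmt6 and Prmt7, and 1 higher (all genes, 14.5%), Prmt2 at 2.36 (1.54 to 3.64). Of the proliferation genes 22 of 22 were lower in these cells of BM-shPrmt9, from 1756 to 646 CPM in sum, and their part in the result was not tested. With classes taken from clusters, 0 members were past the fold in the lower direction. Of these monocytic cells 75.9% of BM-Ctrl and 91.5% of BM-shPrmt9 lay in 1 shared cluster led by Fn1 and Vcan, and 97 of the remaining cells of BM-Ctrl lay in a cluster where 91.8% of them carried proliferation transcripts. Within the shared cluster Prmt5 was at 11.1 and 10.7 CPM, Prmt7 at 8.35 and 8.51, Prmt1 at 42.5 and 56.2, and Prmt2 at 4.46 and 9.70 CPM, in BM-Ctrl and BM-shPrmt9 respectively. There the intervals of Prmt5 and Prmt7 overlapped, Prmt1 was higher and not lower in BM-shPrmt9, and Prmt2 was again higher.

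B cells of marrow had 1 of 9 members past 1.5-fold, Prmt6, which was higher at 2.40 (1.22 to 4.50) (all genes higher, 10.9%), with 15 UMIs in 102 cells of BM-shPrmt9. Of these B cells 5.51% of BM-Ctrl and 15.8% of BM-shPrmt9 carried proliferation transcripts. Among those without them 2 members were past 1.5-fold lower (all genes, 17.3%), Prmt3 at 0.504 (0.246 to 0.928) and Carm1 at 0.564 (0.177 to 1.39), and Prmt1 was at 0.778 (0.611 to 0.979). Mature neutrophil markers were higher in B cells of BM-shPrmt9 for 7 of 7 genes, from 233 to 2052 CPM in sum, and their part was not tested. T cells had 2 of 8 lower (all genes, 10.9%), Prmt3 at 0.617 (0.313 to 1.16) and Wdr77 at 0.646 (0.308 to 1.28), and basophils 2 of 7 (all genes, 11.1%), Prmt5 at 0.552 (0.309 to 0.995) and Prmt7 at 0.621 (0.309 to 1.27). Of these 4 intervals that of Prmt5 in basophils left out 1. Erythroid cells of marrow had 6 of 7 members higher past 1.5-fold, where 62% of all genes were, with a median log2 ratio of 1.58 against 0.82 for all genes, and 1 member was past it with classes taken from clusters, where Prmt1 was at 0.534. In the largest erythroid cluster Prmt1 was at 4.52 CPM in BM-Ctrl and 1.98 CPM in BM-shPrmt9, where its intervals overlapped. Prmt5 had 1 UMI in all erythroid cells of BM-Ctrl and 33 in those of BM-shPrmt9.

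In B cells of spleen the members were higher in the shPrmt9 library. Of the 9 members 8 had an interval of the ratio above 1, which held for 25.3% of 12933 genes, and 4 were past 1.5-fold, which held for 11.4%. Scaling by edgeR's TMM factors put 8 members past it, as did centring on the median of all genes, and the mean of per-cell CPM put 2. The median log2 ratio was 0.58 for the members and -0.21 for all genes. Prmt1 was at 119.5 (116 to 123) CPM in 5573 cells of Spleen-Ctrl and 247 (241 to 253) CPM in 1355 cells of Spleen-shPrmt9. Prmt5 went from 26.1 (24.7 to 27.6) to 54.3 (51.5 to 57.1) CPM and Wdr77 from 23.8 (22.4 to 25.2) to 39.9 (37.6 to 42.4) CPM, so enzyme and cofactor were higher together. Clns1a had a ratio of 1.43 (1.35 to 1.51), Prmt3 of 1.5 (1.38 to 1.63), Prmt7 of 1.45 (1.34 to 1.58) and Carm1 of 1.49 (1.32 to 1.69). The interval of Prmt2 included 1, at 1.04 (0.852 to 1.27). In the same cells 22 of 22 proliferation genes were higher in Spleen-shPrmt9, from 406 to 609 CPM in sum, and 8 of 8 B cell markers were lower, from 10287 to 6459 CPM. Their part in the result was not tested.

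The B cells of the 2 spleen libraries had different main clusters, and within a library most members differed between its clusters. In Spleen-Ctrl the cluster led by Ighd, Bank1 and class II genes (4247 cells) had 74.2 (71.1 to 77.4) CPM of Prmt1, and the one led by the activation genes Cd83, Egr3 and Nr4a1 (1240 cells) had 200.2 (193 to 207) CPM. In Spleen-shPrmt9 the cluster led by Apoe, Iglc2 and Fcmr (692 cells) had 85.4 (79.5 to 91.8) CPM, and the one led by Zbtb32, Il6, Mir155hg and Bcat1 (584 cells) had 339 (330.2 to 348) CPM. Each library thus held a cluster with low and a cluster with high Prmt1. Prmt5 followed the same order, at 16.9 (15.5 to 18.5), 42.1 (39.0 to 45.3), 24.4 (21.3 to 27.9) and 70.5 (66.6 to 74.7) CPM. Wdr77 was at 17.3, 34.8, 16.7 and 53.3 CPM. The intervals of the 2 low clusters overlapped for every member but Prmt1 and Prmt5. Prmt9 ran the other way, at 14.9 and 12.6 CPM in the low and 9.27 and 7.88 CPM in the high clusters, and Prmt2 was between 5.41 and 6.22 CPM in all 4. Median depths were 5904, 10612, 11320.5 and 26428 UMIs in the order above, and the part of depth in these levels was not tested. In B cells with proliferation transcripts (109 and 71 cells) the ratio was 1.11 (0.996 to 1.24) for Prmt1 and 1.04 (0.810 to 1.33) for Prmt5.

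**Figure D4:**
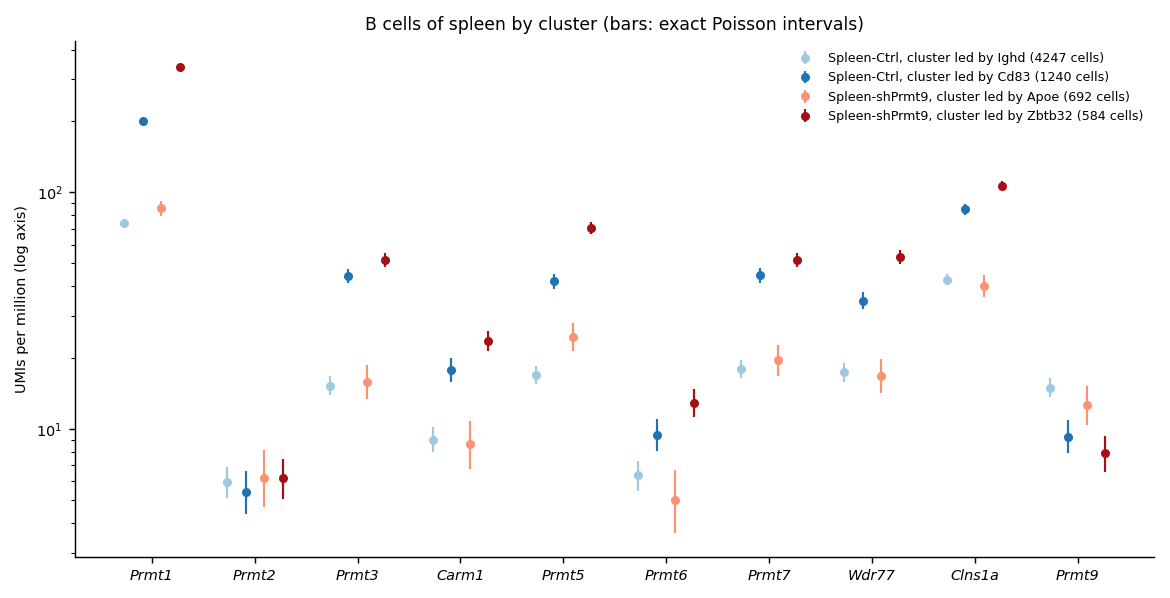
Level of the 9 members and Prmt9 (CPM, log axis) in the 4 clusters that hold most B cells of spleen, 2 from each library, with exact Poisson intervals; each cluster is named by its leading gene. Prmt1 is at 74.2 and 200.2 CPM in the clusters of Spleen-Ctrl and at 85.4 and 339 CPM in those of Spleen-shPrmt9, and Prmt2 is level across all 4.

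T cells of spleen differed less. Of 9 members 6 had an interval of the ratio below 1 (all genes, 35.5%), but 1, Prmt7, was lower past 1.5-fold (all genes, 19.7%), at 0.650 (0.565 to 0.748). Prmt2 was higher past 1.5-fold (all genes, 9.79%), from 8.74 (7.43 to 10.2) to 13.6 (12.2 to 15.1) CPM. The ratios of Prmt2 and Prmt5 had intervals above 1, which held for 21.9% of all genes. Prmt5 went from 28.2 (25.8 to 30.8) to 34.6 (32.4 to 36.9) CPM, not past 1.5-fold. Its cofactors were lower in all T cells, Wdr77 at 0.845 (0.732 to 0.977) and Clns1a at 0.868 (0.794 to 0.95). These lay nearer to 1 under TMM factors (0.897 and 0.921), and among cells without proliferation transcripts the interval of Wdr77 included 1, at 0.893 (0.767 to 1.04). Of the proliferation genes 22 of 22 were lower in T cells of Spleen-shPrmt9, from 454 to 286 CPM in sum, as were 8 of 8 B cell markers, from 583 to 174 CPM, and their part was not tested. In cells with Cd4 but no Cd8a or Cd8b1 UMIs (454 and 745 cells) the ratio of Prmt5 was 1.43 (1.06 to 1.96) and that of Prmt7 0.455 (0.306 to 0.675), while Wdr77 at 0.862 (0.604 to 1.24) and Clns1a at 1.01 (0.810 to 1.26) had intervals that included 1. In those with Cd8a or Cd8b1 but no Cd4 (1001 and 1118 cells) they were 1.23 (1.08 to 1.41) and 0.718 (0.604 to 0.854), and Prmt2 had 1.89 (1.42 to 2.54).

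NK cells of spleen, 83 and 145 cells that lay to 92.8% and 96.6% in 1 shared cluster led by Gzma and Prf1, had 6 of 9 members lower past 1.5-fold, against 13.1% of all genes, and a median log2 ratio of -0.80 against 0.14. With doublets kept, 2 members were lower past the fold. Proliferation genes were lower in NK cells of Spleen-shPrmt9 for 17 of 22 and higher for 3, from 665 to 282 CPM in sum, and B cell markers were lower for 7 of 8, from 433 to 161 CPM. Their part in the result was not tested. Prmt1 went from 201 (176 to 227) to 113 (96.7 to 132) CPM, Prmt6 from 28.9 (20.2 to 40.0) to 10.2 (5.69 to 16.8) CPM and Prmt5 from 69.0 (55.2 to 85.2) to 44.7 (34.6 to 56.9) CPM. Prmt3, Carm1 and Prmt7 were the other members lower past the fold, with ratios of 0.556 (0.329 to 0.927), 0.541 (0.270 to 1.05) and 0.575 (0.360 to 0.906), of which that of Carm1 includes 1. Prmt2 was higher past the fold (all genes, 23.2%), at 1.55 (0.847 to 2.92), an interval that includes 1. Within the shared cluster Prmt1 was at 204 and 116 CPM and Prmt5 at 73.2 and 44.6 CPM. In erythroid cells of spleen 4 of 6 members were lower past 1.5-fold, where 74.8% of all genes were. Over all genes of that class the median log2 ratio was -1.21. With classes taken from clusters in place of marker gates, 0 members were past it in that direction.

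The spleen libraries also held 31 and 99 cells of the progenitor gate. They were not compared, because 94.9% of those of Spleen-shPrmt9 lay in a cluster led by Stfa3, Stfa2 and Olfm4 that was named for immature neutrophils. Prmt1 was at 166 and 52.2 CPM in them. Mature neutrophils and monocytes of spleen had 1 and 2 members with at least 20 UMIs and are described no further than in the counts over comparisons that follow.

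Over the 14 comparisons of a class between labels, Prmt2 was the member without an interval below 1: of 7 comparisons with at least 20 UMIs 3 lay above 1 and 4 included it. Prmt5 had 6 below and 3 above 1 in 12 comparisons, Prmt7 6 and 2 in 12, and Prmt1 6 and 2 in 13. Over all genes, the share with an interval below 1 ran from 4.73% in erythroid cells of marrow to 61.7% in those of spleen. The share above 1 ran from 3.79% in erythroid cells of spleen to 54.3% in those of marrow. The tallies of the members were not adjusted for these shares. Wdr77 and Carm1 had the most intervals that included 1, 10 of 13 and 9 of 12. They gave 10905 and 4559 UMIs in all, and Prmt3 and Prmt6, with 10189 and 4235 UMIs, had 5 of 11 and 4 of 8 intervals that included 1.

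**Figure D5:**
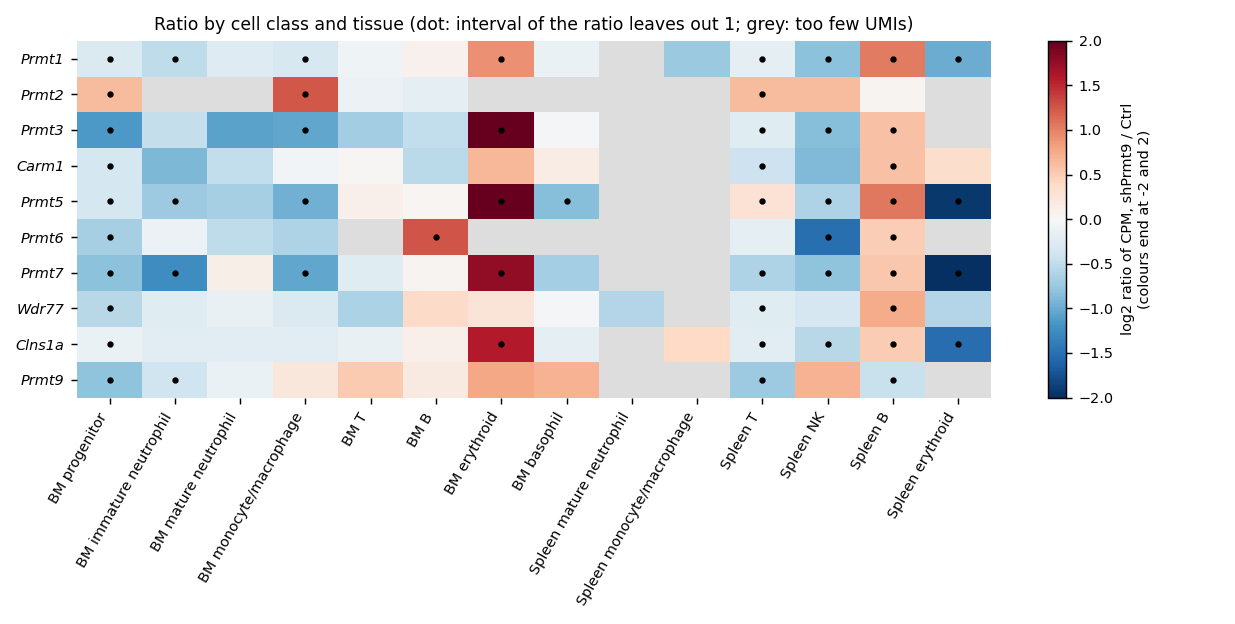
log2 ratio of CPM (shPrmt9 over Ctrl) of the 9 members and Prmt9 in the 14 comparisons of a cell class within a tissue; red is higher and blue lower in shPrmt9, a dot marks an interval of the ratio that leaves out 1, and grey marks fewer than 20 UMIs. The column of spleen B cells is red for every member, from 1.04 (Prmt2, no dot) to 2.08 (Prmt5) as ratios, and that of marrow progenitors is blue for all but Prmt2.

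A list of 29 genes around the members (other methyltransferases, partners, suppliers of S-adenosylmethionine, substrates, Tudor readers and enzymes that change methylarginine) was read in the same comparisons. Prmt8 and Ddah1 gave 0 UMIs in marrow progenitors. There 6 of the 27 with at least 20 UMIs were lower past 1.5-fold and 1 was higher, with a median log2 ratio of -0.15, where 16% of all genes were lower and 22.2% higher. Mat2a, which makes S-adenosylmethionine, had a ratio of 0.587 (0.574 to 0.601), Riok1, an alternative partner of Prmt5, of 0.517 (0.50 to 0.535), and Btg1, a binding partner of Prmt1, of 0.551 (0.536 to 0.566). The others lower were the Tudor readers Smn1 (0.623) and Smndc1 (0.534), and Ndufaf7 (0.662). The gene that was higher was Padi4, the neutrophil deiminase that turns arginine into citrulline, at 3.05 (2.89 to 3.22). Of the Sm and nucleolar substrates, Snrpb (1.07), Snrpd1 (1.19), Snrpd3 (0.994) and Fbl (0.902) lay near 1 and Ncl (0.721) below it.

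In B cells of spleen 9 of the 27 with at least 20 UMIs were higher past 1.5-fold (all genes, 11.4%) and 4 lower (all genes, 27.7%). The nucleolar substrates Gar1, Ncl and Fbl had ratios of 2.05 (1.95 to 2.15), 2.03 (2.01 to 2.06) and 1.86 (1.81 to 1.92). The Sm proteins Snrpd1 (1.73) and Snrpd3 (1.72) were also higher, as were Smn1 (1.68), Adk (1.63) and Ahcy (1.75), the last of which clears the product of methylation. Those lower were the antiproliferative genes Btg1 and Btg2, at 0.328 (0.320 to 0.335) and 0.499 (0.481 to 0.518), Ddah2 (0.650) and Padi2 (0.355). NK cells of spleen had 7 of 23 lower past 1.5-fold (all genes, 13.1%), with Mtap at 0.271 (0.147 to 0.476), Ncl at 0.422 (0.393 to 0.453), Snrpd1 at 0.541 (0.462 to 0.633) and Fbl at 0.545 (0.452 to 0.654), and 1 higher (all genes, 23.2%), Tdrd3, whose interval includes 1. Of the list, 4 genes (Adk, Fbl, Ncl and Snrpd1) were higher past 1.5-fold in the B cells and lower past it in the NK cells. The share of all genes with both calls was not counted, so this count cannot be set against it.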

How the data were processed

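The authors deposited unnormalized counts, the number of UMIs of each gene in each cell barcode. Cell Ranger produced them on mm10 from Chromium 3′ v2 libraries, its version being 6.1.1 in the submitters' processing notes and 6.0.2 in the file headers. Barcodes were left out below 200 genes or above 20% mitochondrial UMIs. Scrublet's own threshold marked 110, 0, 1 and 203 barcodes (BM-Ctrl, BM-shPrmt9, Spleen-Ctrl, Spleen-shPrmt9), so the highest-scoring cells were left out instead, at 0.8% per 1000 barcodes.

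A cell entered the class whose marker list scored highest in it, if at least 3 genes of that list were found, apart from the progenitor rule given above. A class was compared within a tissue where both libraries had at least 30 cells. In both, at least 50% of the cells also had to lie in clusters named for that class. The 38 Leiden clusters (3000 variable genes, 50 components, 15 neighbours, resolution 1; scanpy 1.11.5) served as a check and as an alternative. The UMIs of each gene were summed per class and library and divided by the sum's total. Levels have exact Poisson intervals and ratios exact conditional binomial intervals at 95% (scipy 1.17.1), and with 1 library a group no test between labels was possible. A gene was read from 20 UMIs over both libraries and called past 1.5-fold, and a count of 0 allows 3 counts. Intervals and floors cover counting error only. For a sum of 0 UMIs no fold is given. Profile likeness used log2(CPM + 1). The ratio step was tested on simulated counts of 14166 genes of marrow progenitors. There 100 of 100 genes raised 2-fold and 100 of 100 lowered 2-fold were recovered, and 95.49% of intervals held the true ratio. The counts were Poisson draws, for which such intervals are built, and the changed genes were taken from those with many UMIs. The simulation thus checked the calculation only. Recovery at small counts and variation between cells or animals were not part of it. Alternatives were edgeR 4.0.16 TMM factors, centring, other totals, filters and classes, and cells with or without proliferation transcripts; the restriction to progenitors with little immature neutrophil transcript was chosen after seeing the data.

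Genes named in the text were all members, Prmt9, genes of a list around the members with at least 20 UMIs, and the 3 nearest profiles of each member, beside markers and leading genes of classes. The members and lists were chosen with earlier results of these data known. Gene models are GENCODE's and start-site windows RefSeq's.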

Additional observations from a re-analysis of the deposited data

Results flagged for a closer look

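In erythroid cells 4 members lay on opposite sides of 1 in marrow and in spleen, with shPrmt9 over Ctrl ratios above 1 in the first and below 1 in the second. The difference between the tissues was not tested, since each has 1 library a label. Prmt1 had a ratio of 1.89 (1.24 to 2.98) in marrow and 0.502 (0.306 to 0.862) in spleen. Prmt5 was at 17.0 in marrow, from 1 UMI under Ctrl and 33 under shPrmt9 with an interval of 2.84 to 690, and at 0.264 in spleen, from 7 and 16 UMIs in the same order, the larger count coming from a larger total. Prmt7 was at 3.43 and 0.188, and Clns1a at 3.0 and 0.346. All genes moved the same way, with a median log2 ratio of 0.82 in erythroid cells of marrow and -1.21 in those of spleen, and the part of that shift in the members' ratios was not tested. With classes taken from clusters, 1 member was past 1.5-fold higher in marrow and 0 were past it lower in spleen. Prmt1 was then at 0.534 in marrow and 2.77 in spleen, the reverse of its ratios by marker gates, and scaling by TMM factors alone brought it to 1.13 in spleen.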

How the results depend on the processing

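Over the alternatives in 12 comparisons (all but mature neutrophils and monocytes of spleen), 99 of the counts of members past 1.5-fold stayed within 1.5 times the reported count and 39 did not. Of the members' ratios, 964 values stayed within the reported interval and 78 moved outside it on the same side of 1 or from an interval that included 1. The ratio crossed 1 in 16 of 561 values where the reported interval left out 1, all given below, and in 52 of 497 where it included 1. The cause of these changes was not tested, except that at least 100 UMIs leaves fewer members to count.

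In marrow, the 3 members lower in progenitors became 7 among cells without proliferation transcripts and 1 among those with little immature neutrophil transcript (chosen after seeing the data), where the ratio crossed 1 for Prmt1 (1.11), Carm1 (1.25) and Clns1a (1.12). The 3 lower in immature neutrophils became 5 with doublets kept, 0 at 100 UMIs and 1 among cells with proliferation transcripts. The 2 lower in mature neutrophils became 1 under TMM factors, 1 under centring, 1 at 1000 UMIs per cell and 0 at 100 UMIs. The 4 lower in monocytes became 0 with classes from clusters and 1 with the mean of per-cell CPM, and Prmt1 rose above 1 under both (1.14 and 1.13). The 2 lower in T cells became 1 with classes from clusters, 1 with doublets kept, 0 with the mean of per-cell CPM and 0 at 100 UMIs, and the 1 higher in B cells 0 at 100 UMIs. The 6 higher in erythroid cells became 1 with classes from clusters, 1 at 100 UMIs and 3 among cells with proliferation transcripts, and Prmt1 fell below 1 with classes from clusters (0.534) and the mean of per-cell CPM (0.622). Without the cell with the most UMIs, Prmt5 had 0 UMIs in erythroid cells of BM-Ctrl and no ratio. The 2 lower in basophils became 1 with classes from clusters, 1 among cells without proliferation transcripts, 0 with the mean of per-cell CPM and 0 at 100 UMIs.

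In spleen, the 1 lower in T cells became 0 under TMM factors, under centring, with doublets kept and among cells with proliferation transcripts (Prmt7 at 1.10 in the last). The 6 lower in NK cells became 2 with doublets kept and 2 at 100 UMIs. The 4 higher in B cells became 8 under TMM factors, 8 under centring, 7 with classes from clusters, 2 with the mean of per-cell CPM and 0 among cells with proliferation transcripts, where Prmt3 (0.995), Prmt7 (0.854) and Clns1a (0.959) fell below 1. The 4 lower in erythroid cells became 2 under TMM factors, 2 under centring, 2 without the cell with the most UMIs of the gene, 1 at 100 UMIs and 0 with classes from clusters. There Prmt1 rose above 1 under TMM factors (1.13), centring (1.16), classes from clusters (2.77) and the mean of per-cell CPM (1.01), and Clns1a with classes from clusters (2.23).

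No paired analysis was possible because each group has 1 library. Label and library cannot be told apart in any comparison, and counting intervals do not cover differences between animals. Members with fewer than 20 UMIs in a comparison were not counted.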
